A study of Mus musculus with 16 samples.

Results

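The mitochondrial ribosomal protein genes were taken as all rows of the deposited gene tables whose symbol is Mrpl or Mrps followed by digits and at most 1 letter, without a pseudogene suffix. This rule found 78 of 55487 genes, 49 named Mrpl for the large subunit and 29 named Mrps for the small subunit, on 17 chromosomes. Another 6 rows carrying these names with a pseudogene suffix were left out. RNA was sequenced from mid sections of 16 left ventricles, all from C57Bl/6J mice 24 months old. The multiparous group (8 libraries) came from mice that had been through more than 3 pregnancies, and the virgin group (8 libraries) from mice that had never been pregnant. No mouse received a treatment, and no transgene or mutant allele is named, so the groups differ by reproductive history within 1 strain and 1 age. The library names carry a code, P in 4 multiparous libraries, MP in the other 4 and AA in all 8 virgin libraries. The labels do not explain the codes, and a difference between multiparous and virgin hearts cannot be told apart from one tied to the code.

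Mitochondria keep their own ribosome, which translates the few messenger RNAs of the mitochondrial genome. Its products are core subunits of the respiratory chain and of ATP synthase, on which the beating heart depends for its energy. Every protein of this ribosome is encoded in the nucleus, made in the cytosol and imported. The small subunit binds messenger RNA and decodes it, and the large subunit joins amino acids and holds the exit tunnel for the new protein. Some of the proteins have a bacterial homologue and others were added in the mitochondrial lineage. Inherited defects in several of these genes, MRPL3 among them, cause cardiomyopathy in infants. Genes of mitochondrial function are known targets of the transcription factors NRF1, GABP (an ETS family factor) and YY1.

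The start regions of the members were examined first, because the genes lie scattered over 17 chromosomes. RefSeq windows on GRCm38.p6, reaching from 250 bases before to 50 bases after the transcription start, were available for 69 members. Positions are counted from the RefSeq start, which in some genes lies inside the gene as GENCODE M21 annotates it. Of the 69 members, 34 (49.3%) held at least 1 of 3 motifs, against 21.7% of 10664 tested protein-coding genes and 11.7% of all 27025 genes with a window. A gene was counted if any of its windows held a match. Of the members 66 had 1 window, and the number of windows per gene was not matched. Base composition was not matched. The motifs were sought on both strands. The NRF1 motif, spelled GCGC, then any base, then TGCGC, stood in 13 members (18.8%), against 10.7% of tested coding genes and 5.19% of all genes with a window. The ETS motif CCGGAAGT or ACTTCCGG stood in 12 members (17.4%, against 8.40% and 4.31%). The YY1 motif AAGATGGC or GCCATCTT stood in 12 members (17.4%, against 4.76% and 3.19%). These are matches of letters, not measured binding.

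With A as the free base the NRF1 motif is a palindrome. It stood in this form in 3 members (4.35%, against 2.16% of tested coding genes), which are shown for it with the motif in capitals, 5′ to 3′ on the strand of the gene. The Mrpl9 stretch covers the last 120 bases before its start (chr3:94443216-94443335, plus strand). The Mrpl32 stretch (chr13:14613105-14613134, minus strand) lies 97 to 68 bases before the RefSeq start. The Mrpl39 stretch (chr16:84735350-84735379, minus strand) lies 135 to 106 bases before its own. By GENCODE M21 Mrpl32 begins at 14613165 and Mrpl39 at 84735742, so both stretches lie inside the genes, with all 30 bases exonic. Mrpl9 begins at 94443318 there, and 18 bases of its stretch are exonic.
Mrpl9: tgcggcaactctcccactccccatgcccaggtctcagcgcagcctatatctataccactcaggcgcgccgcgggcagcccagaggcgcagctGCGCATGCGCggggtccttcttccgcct
Mrpl32: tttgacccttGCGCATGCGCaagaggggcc
Mrpl39: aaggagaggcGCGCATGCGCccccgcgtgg

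The ETS motif lay before the start in 11 of its 12 matches, with a median distance of 27 bases. It is shown, in capitals, for Mrpl3 and Mrps27, which are described with their values below. The Mrpl3 stretch is chr9:105053148-105053267 and the Mrps27 stretch chr13:99344706-99344785, both on the plus strand and ending at the base before the RefSeq start. GENCODE M21 begins Mrpl3 at 105053239, so the last 29 bases of its stretch, the ETS motif among them, lie inside the annotated gene.
Mrpl3: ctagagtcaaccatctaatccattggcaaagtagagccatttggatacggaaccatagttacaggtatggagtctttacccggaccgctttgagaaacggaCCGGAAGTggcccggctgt
Mrps27: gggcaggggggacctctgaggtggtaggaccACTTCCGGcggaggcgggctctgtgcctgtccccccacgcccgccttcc

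The YY1 motif differed in position, with 8 of its 12 matches after the start. Mrpl37 (chr4:107066822-107066851, minus strand) and Mrps18a (chr17:46111004-46111033, plus strand) are shown for this, with the motif in capitals. In Mrps11 (chr7:78783013-78783042, plus strand) the motif stood before the start and on the other strand. By GENCODE M21 this stretch lies inside Mrpl46 (78775236 to 78783531, minus strand), with all 30 bases exonic. On the strand of Mrpl46 the motif reads AAGATGGC.
Mrpl37: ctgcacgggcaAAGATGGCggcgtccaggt
Mrps18a: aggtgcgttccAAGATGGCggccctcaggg
Mrps11: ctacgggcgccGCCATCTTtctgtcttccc

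All 78 members passed the filter on low counts and were tested among 17813 genes. Gene counts per library were 34560606 to 58890976 in 15 libraries and 228325238 in virgin 8. The members together took 0.242% to 0.285% of the gene counts of a library. The lowest single count was 21, in Mrpl53, and 77 members had more than 100 counts in every library. Cardiomyocyte markers, summed over 10 genes, measured 73617 to 91224 CPM (a gene's counts divided by the library total, scaled by edgeR's TMM factors) in multiparous and 68072 to 97705 CPM in virgin hearts, with none at 0. Of these 10 markers 9 had a lower mean in the multiparous group (median log2 fold change −0.046), 1 of them, Myl3, at an unadjusted p under 0.05, and none passed the test. All 12 kidney tubule markers were found, and their sum was 10.1 to 34.7 CPM in multiparous and 20.3 to 119 CPM in virgin libraries. All 10 tested kidney markers were lower in the multiparous group, 9 of them at an unadjusted p under 0.05. The 7 liver markers summed to 4.30 to 307 CPM in multiparous and 3.39 to 228 CPM in virgin libraries. With the kidney marker sum as a covariate, 50 of 78 members had a lower fitted mean in multiparous hearts, against 66 without it, and the median log2 fold change of the members was −0.020. Their part in the difference was not tested beyond this fit. Of 8 fibroblast markers 5 were higher in the multiparous group (summed level 1573 to 2276 CPM, against 1436 to 1949 CPM). Among these, Gsn, Dcn and Tcf21 stood at an unadjusted p under 0.05 (log2 fold changes 0.38, 0.19 and 0.31). None of the 3 lower fibroblast markers stood there. The 7 of 7 macrophage markers were higher too (264 to 478 CPM, against 262 to 489 CPM), none at an unadjusted p under 0.05. No fibroblast or macrophage marker passed the test.

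The first question was whether the transcripts of these genes differ between hearts with and without past pregnancies. No member passed the test in either direction at an edgeR adjusted p under 0.05, where 0.00561% of all genes were called higher and 0.00561% lower. DESeq2 called 1 member, Mrpl3, as lower, where it called 0.376% of all genes lower. With limma voom 0 members were called lower, against 0.00561% of all genes. Most members nevertheless had a slightly lower mean in the multiparous group. The fitted mean was lower in 66 of 78 members (84.6%), against 51.4% of all genes tested. The median log2 fold change (multiparous minus virgin) of the members was −0.053, a level 3.63% lower, while the median of all genes was −0.003. Among 6298 genes of similar level, between 11.8 and 90.7 CPM, 53.7% were lower and the median was −0.005. At an unadjusted p under 0.05 stood 9 members, all lower (background 4.09% of all genes), and 0 members stood there as higher (background 4.04%). In bulk tissue, fewer cells of a type and less RNA per cell cannot be told apart.

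**Figure D1:**
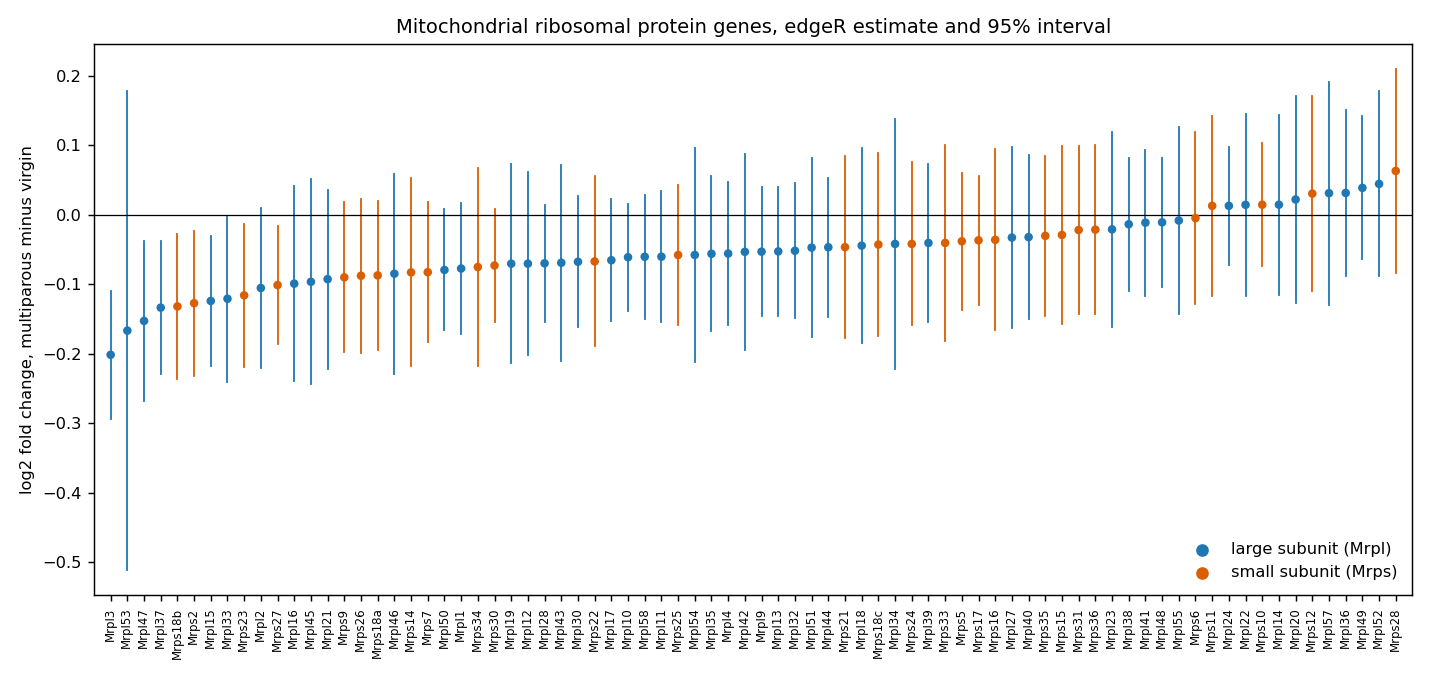
The log2 fold change (y axis, multiparous minus virgin) of each of the 78 members with its 95% interval from edgeR, ordered from lowest to highest, with Mrpl genes in blue and Mrps genes in orange. Points run from −0.20 for Mrpl3 to 0.06 for Mrps28, and 69 of the 78 intervals include 0.

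The plot of fold changes shows how narrow the estimates were. The standard error had a median of 0.055 on the log2 scale and ranged from 0.037 to 0.16. The 95% intervals of 77 members lay within 0.5 of 0. The exception was Mrpl53, the member with the fewest counts, whose interval ran from −0.51 to 0.18. In 0 members were the libraries of the 2 groups fully separated, against 0.0168% of all genes with the multiparous group lower and 0.0168% with it higher.

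Among the large subunit genes, Mrpl3 encodes a protein that reaches towards the catalytic centre of the ribosome, and it had the smallest p of all members. Its lowest, median and highest levels were 63.8, 67.7 and 74.3 CPM in multiparous hearts and 68.9, 80.0 and 84.5 CPM in virgin hearts. None of the 8 multiparous libraries reached the virgin mean and 7 lay below the lowest virgin library, so the groups overlapped through multiparous 3 alone. The means were 67.7 ± 3.1 CPM and 77.9 ± 5.6 CPM (SD, n = 8 each). The log2 fold change was −0.20 (SE 0.044, 95% interval −0.29 to −0.11, edgeR adjusted p = 0.0954), which did not pass. DESeq2 gave an adjusted p of 0.0104. With edgeR it passed without virgin 1 (adjusted p = 0.048) and without virgin 7 (adjusted p = 0.0347), the virgin libraries in which it was lowest. It did not pass with the kidney marker sum as a covariate (log2 fold change −0.18, edgeR adjusted p = 0.798). The gene (ENSMUSG00000032563.16) lies on chromosome 9 at 105053239 to 105079888, plus strand, in GRCm38.

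Mrpl37, a protein added in the mitochondrial lineage, had the next smallest p. It measured 46.2, 48.8 and 55.1 CPM (lowest, median and highest) in multiparous and 47.0, 55.7 and 58.1 CPM in virgin hearts. The ranges overlapped, with 4 virgin libraries above the highest multiparous one, and 7 of 8 multiparous libraries were under the mean of the virgin ones. Its log2 fold change was −0.13 (SE 0.046, edgeR adjusted p = 0.380). Mrpl15, which encodes a protein with a bacterial homologue, measured 32.7, 35.0 and 37.5 CPM against 33.1, 38.7 and 41.0 CPM. All 8 multiparous libraries lay below its virgin mean, and 6 virgin libraries lay above the highest multiparous one. Its log2 fold change was −0.12 (SE 0.045, edgeR adjusted p = 0.424).

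Mrpl47, known as the homologue of bacterial L29 near the tunnel exit, measured 19.8, 22.5 and 25.6 CPM in multiparous hearts against 21.3, 25.4 and 28.0 CPM in virgin hearts. Its log2 fold change of −0.15 (SE 0.055, edgeR adjusted p = 0.425) was the largest after those of Mrpl3 and Mrpl53. Of its exonic bases, 13.9% lie opposite Ndufb5 and 10.2% opposite Actl6a, and the strand setting of the counting is not given in the sources used here. Mrpl33 averaged 37.9 ± 3.1 CPM in multiparous hearts and 41.3 ± 3.4 CPM in the virgin group (log2 fold change −0.12, edgeR adjusted p = 0.610). Mrpl2, which belongs to the core of the large subunit, averaged 34.2 ± 2.2 and 36.8 ± 3.2 CPM (log2 fold change −0.11, edgeR adjusted p = 0.661). In both genes the groups overlapped, with 2 and 1 multiparous libraries below the lowest virgin one.

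Among the small subunit genes, Mrps18b had the smallest p. It is 1 of 3 mammalian relatives of bacterial S18 and sits in the small subunit. Its lowest, median and highest levels were 14.7, 16.6 and 18.9 CPM in multiparous and 17.0, 18.2 and 19.8 CPM in virgin hearts, with 5 of 8 multiparous libraries below the lowest virgin one. The log2 fold change was −0.13 (SE 0.050, edgeR adjusted p = 0.466), and 30.5% of its exonic bases lie opposite the antisense gene Gm16279. The other relatives had smaller differences. Mrps18a, whose protein is part of the large subunit despite its name, averaged 35.7 ± 2.9 and 37.9 ± 2.2 CPM (log2 fold change −0.09, edgeR adjusted p = 0.720). Mrps18c averaged 11.7 ± 0.9 and 12.0 ± 1.1 CPM (log2 fold change −0.04, edgeR adjusted p = 0.913). The differences among the 3 relatives were not tested.

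Mrps2, a homologue of bacterial S2, measured 30.004, 33.1 and 36.4 CPM (lowest, median, highest) in multiparous and 31.4, 36.6 and 38.4 CPM in virgin hearts. Mrps27, a pentatricopeptide repeat protein that binds mitochondrial RNA, measured 36.6, 41.1 and 44.1 CPM against 40.1, 44.4 and 46.4 CPM. Mrps23, one of the most abundant members, measured 76.2, 87.0 and 97.3 CPM against 83.1, 95.2 and 101.2 CPM. In each of these genes 7 of 8 multiparous libraries lay below the virgin mean and the ranges overlapped. Their log2 fold changes were −0.13, −0.10 and −0.12, with edgeR adjusted p of 0.493, 0.511 and 0.547.

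**Figure D2:**
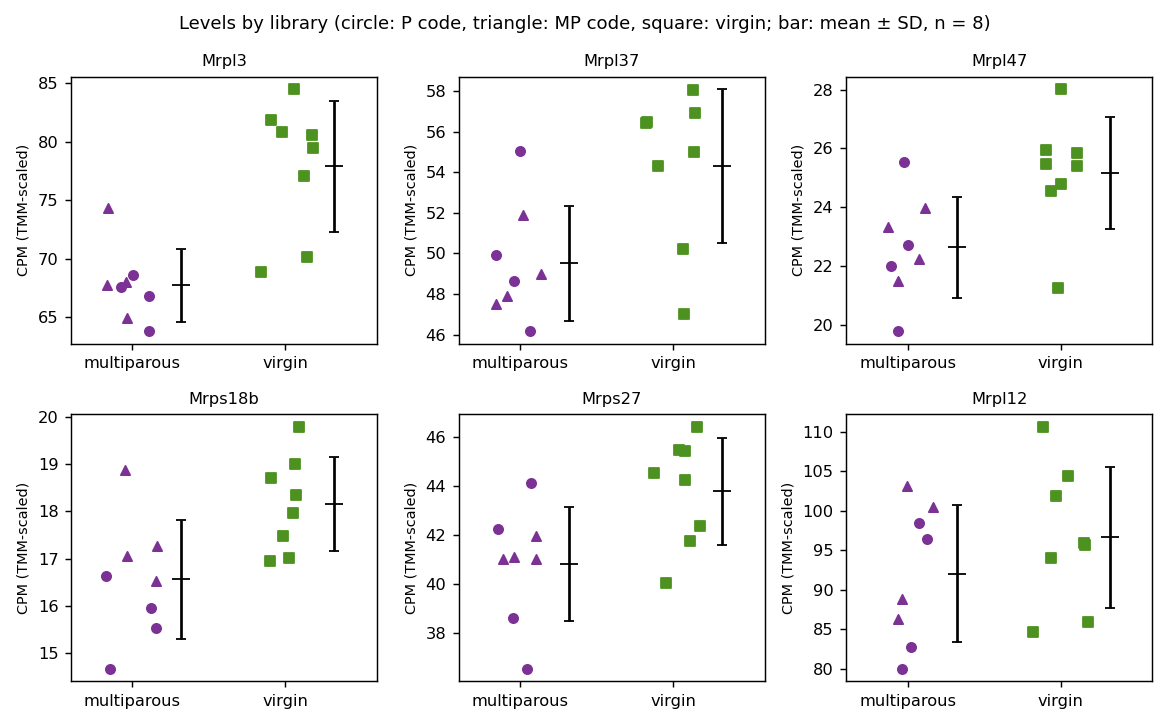
Levels in CPM (y axis) of Mrpl3, Mrpl37, Mrpl47, Mrps18b, Mrps27 and Mrpl12 in each of the 16 libraries, with the mean and SD of 8 libraries as bars, circles for P-coded and triangles for MP-coded multiparous libraries, and squares for virgin libraries. The y axes do not start at 0, and in every panel the groups overlap, least in Mrpl3.

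Several members named for their roles showed small differences. Mrpl12, which forms the flexible stalk that contacts elongation factors and also binds the mitochondrial RNA polymerase, averaged 92.0 ± 8.7 CPM in multiparous hearts, with 96.6 ± 8.9 CPM in the virgin group (log2 fold change −0.07, edgeR adjusted p = 0.832). Mrpl58, a peptidyl-tRNA hydrolase that frees stalled ribosomes, averaged 28.3 ± 0.8 and 29.5 ± 2.1 CPM (log2 fold change −0.06, edgeR adjusted p = 0.784), with no multiparous library reaching the virgin mean. Mrps30, whose protein sits in the large subunit despite its name, averaged 31.7 ± 1.8 and 33.4 ± 1.4 CPM (log2 fold change −0.07, edgeR adjusted p = 0.676). Mrps12, the homologue of the bacterial decoding-site protein S12, was among the 12 members with a higher mean in multiparous hearts, 20.5 ± 2.5 against 20.01 ± 1.16 CPM (log2 fold change 0.03). Mrps36, now known as a component of the alpha-ketoglutarate dehydrogenase complex and not of the ribosome, averaged 30.5 ± 2.5 and 31.0 ± 2.6 CPM (log2 fold change −0.02). The sign for Mrps36 turned without scaling factors (0.013).

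Large and small subunit genes were set side by side because the 2 subunits join in equal number. Lower means were found in 41 of 49 Mrpl genes (median log2 fold change −0.056) and in 25 of 29 Mrps genes (median −0.043). Placing Mrps30 and Mrps18a in the large subunit and leaving out Mrps36, as the structure of the ribosome requires, gave 43 of 51 (median −0.056) and 22 of 26 (median −0.043). By origin, 37 of 46 members with a bacterial homologue were lower (median −0.052) and 28 of 31 members added in mitochondria (median −0.058). The 10 added proteins of the small subunit were all lower, between −0.13 and −0.022 with a median of −0.071, as were 12 of 16 small subunit proteins with a homologue (median −0.038). In the large subunit 18 of 21 added proteins (median −0.054) and 25 of 30 with a homologue (median −0.058) were lower. Origin follows the ribosome's nomenclature, in which Mrps18a and Mrps18b count as added. The ratio of summed large to summed small subunit CPM was 2.24 ± 0.02 in multiparous and 2.24 ± 0.02 in virgin hearts and stayed between 2.199 and 2.28 in all 16 libraries. The sums of the 2 subunits therefore rose and fell nearly together between libraries, and a difference of the ratio between groups was not tested.

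The members varied together from library to library within each group. For each library the median over the members of log2 CPM, less each gene's mean over 16 libraries, was taken. It ran from −0.12 to 0.10 in multiparous libraries (mean −0.023 ± 0.081, SD, n = 8) and from −0.11 to 0.13 in virgin libraries (mean 0.028 ± 0.084, n = 8), so the spread inside a group exceeded the gap between the means. In virgin 8, 77 of 78 members lay above their own mean, in virgin 2 this held for 74 members, in multiparous 3 for 72 and in virgin 3 for 70. At the low end stood multiparous 6 and virgin 1, with 6 members above their own mean each, multiparous 5 with 8 and multiparous 7 with 9. High and low libraries thus occurred in both groups. The same count was not taken over all genes, so a shift shared by many genes cannot be told apart here. Virgin 8 was also the deepest library, with 228325238 gene counts, followed by multiparous 5 with 58890976. Complex I is the respiratory chain enzyme that receives electrons from NADH. The 37 nuclear genes listed for it, taken by Nduf symbol and not by structure, had medians between −0.13 and 0.15. These genes were high or low in largely the same libraries, as the plot of library medians shows.

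**Figure D3:**
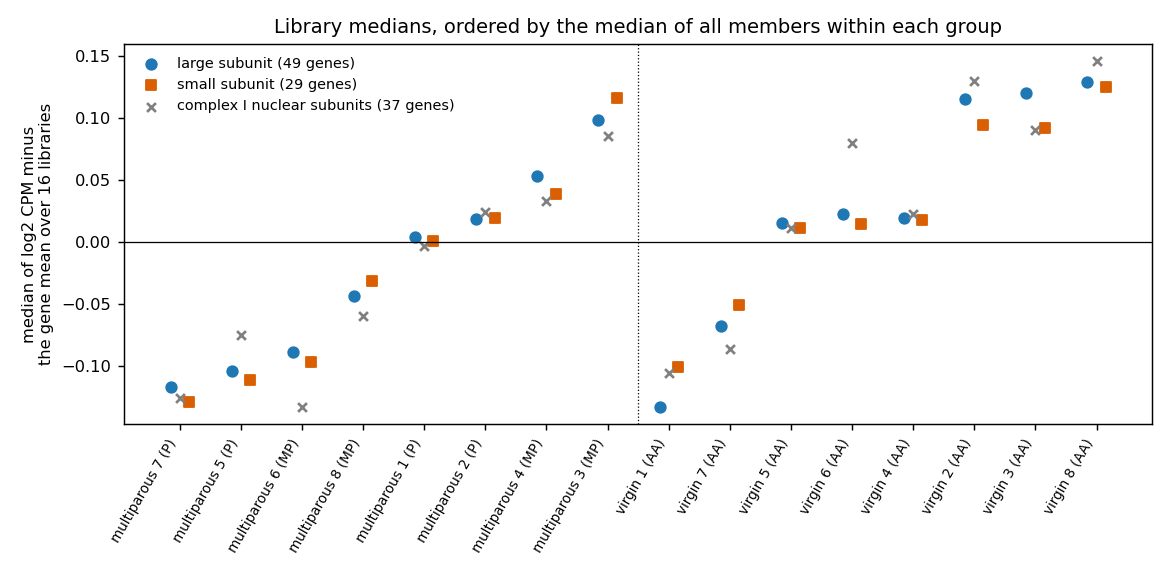
The median deviation of large subunit genes (circles), small subunit genes (squares) and complex I genes (crosses) from their means over 16 libraries (y axis, log2 CPM), for each library on the x axis with its code. Within a library the large and small subunit medians differ by at most 0.032, while libraries of the same group differ by over 0.2.

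Summed over all members, multiparous hearts held 2608 ± 153 CPM and virgin hearts 2721 ± 155 CPM. The multiparous sums ran from 2428 to 2856 CPM and the virgin sums from 2470 to 2901 CPM, overlapping over most of their range. The 4 multiparous libraries with the lowest medians were 2 P-coded and 2 MP-coded libraries. The lowest, multiparous 7 and multiparous 5 (−0.124 and −0.111), were P-coded. The highest, multiparous 3 and multiparous 4 (0.103 and 0.051), were MP-coded.

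Levels between genes were compared per kilobase of annotated exons. The highest members were Mrps21 (62.0 ± 5.7 CPM per kilobase, SD over 16 libraries), a homologue of bacterial S21, Mrpl12 (61.6 ± 5.7) and Mrpl34 (58.7 ± 7.3), a homologue of bacterial L34. Their libraries overlapped, from 53.8 to 72.7, from 52.2 to 72.2 and from 45.9 to 69.2 CPM per kilobase, so their order is not set apart from the spread. The lowest were Mrpl53 (1.01 ± 0.23), Mrps10 (1.75 ± 0.08) and Mrps25 (2.82 ± 0.18), whose ranges over libraries did not meet (0.675 to 1.58, 1.56 to 1.87 and 2.59 to 3.11) except between Mrpl53 and Mrps10. The median was 12.0 CPM per kilobase for the large and 9.06 for the small subunit, by structure. With the longest principal transcript as the length these medians became 22.2 and 16.3 CPM per kilobase, and single genes moved further. Mrpl33 went from 5.40 to 82.8 CPM per kilobase and Mrps10 from 1.75 to 13.9, while Mrpl53 stayed lowest at 1.15. By this length the order at the top changed: Mrpl42 came first (219 CPM per kilobase) and Mrpl30 next (102), ahead of Mrps21 (93.9), Mrpl33, Mrpl12 (71.7), Mrps23 (67.6) and Mrpl34 (58.7). Of the 10 highest members, 8 were shared by both lengths.

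**Figure D4:**
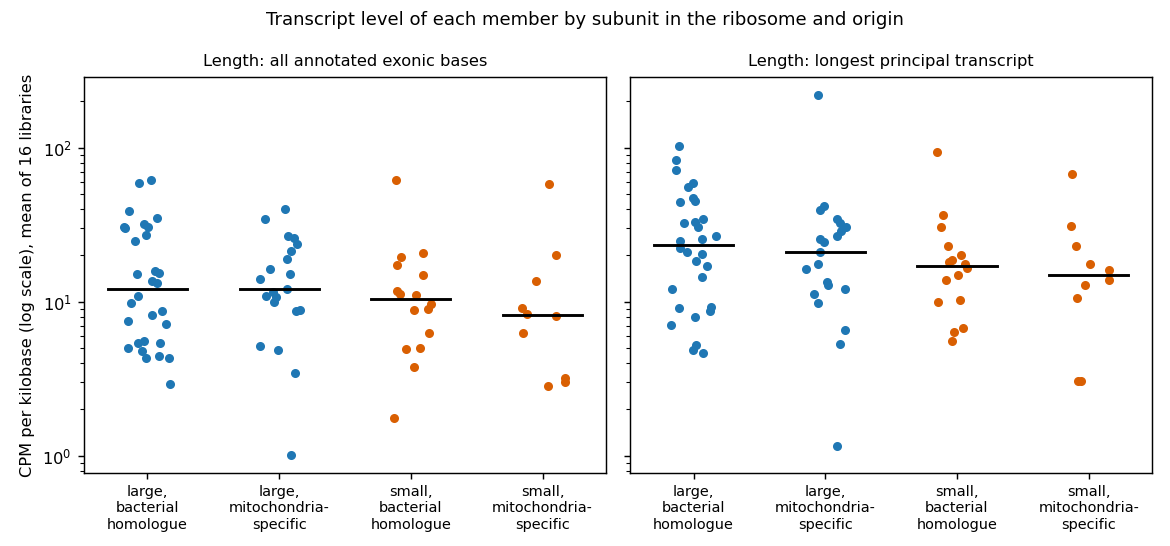
The mean level of each member over 16 libraries in CPM per kilobase (y axis, log scale), by subunit in the structure and by origin, with length taken as all annotated exonic bases (left) or the longest principal transcript (right), and bars at the medians. The groups overlap over nearly their whole range in both panels.

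Some of these levels rest on shared sequence. In all, 33 members share exonic bases with another gene, 8 on the same strand and 28 on the opposite one. Mrpl53 shares 88.0% of its exonic bases on the same strand with Gm42688, listed at 1.15 CPM, so its low count is uncertain. Mrps25 lies opposite Nr2c2 (57.4 CPM) over 69.8% of its exonic bases. Mrps34 lies opposite Mapk8ip3 (97.6 CPM) over 63.4% and shares 36.97% with Nme3 on its own strand. How much these overlaps moved the counts was not tested.

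By median, the members varied slightly more across the hearts than genes of similar level and less than all genes tested. The coefficient of variation of CPM over 16 libraries was under 10% in 72 of 78 members, with a median of 7.93%, against 7.06% for genes of similar level and 12.2% for all genes tested. Mrps10, a small subunit protein with a bacterial homologue, varied least (4.78%). It measured 13.6, 14.3 and 15.1 CPM (lowest, median, highest) in multiparous and 12.6, 14.4 and 15.001 CPM in virgin hearts. Mrpl53 varied most (22.9%), from 0.591 to 0.871 CPM in multiparous and from 0.533 to 1.25 CPM in virgin hearts. Its counts were 21 to 237 per library, and its log2 fold change was −0.17 (SE 0.16, edgeR adjusted p = 0.848).

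The MP and P codes within the multiparous group were compared as a possible batch. No member passed with edgeR, where 0.121% of 18123 genes were called (22 genes), and none with DESeq2, where 1.63% of genes were called. The fitted mean was higher in MP-coded libraries for 68 of 78 members, against 50.6% of all genes, with a median log2 difference (MP minus P) of 0.065. The same held for 74 of 81 ribosomal proteins of the cytosol (median 0.076) and 24 of 37 complex I genes (median 0.031). Of the members, only Mrps18b and Mrps34 stood at an unadjusted p under 0.05, both higher in MP, where 5.93% of all genes did. Mrps18b measured 17.4 ± 1.0 CPM in MP-coded and 15.7 ± 0.8 CPM in P-coded libraries (n = 4 each, log2 difference 0.16, SE 0.066, edgeR adjusted p = 0.420). Mrps34, a small subunit protein added in mitochondria, measured 29.4 ± 2.9 and 25.8 ± 2.4 CPM (edgeR adjusted p = 0.439). Mrpl24, a homologue of bacterial L24, followed with 35.6 ± 1.9 and 32.9 ± 0.6 CPM (edgeR adjusted p = 0.456).

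Markers of other tissues also differed between the codes. Kidney tubule markers summed to 16.1 to 34.7 CPM in MP-coded and 10.1 to 16.9 CPM in P-coded libraries, and 5 of 6 tested were higher in MP, 3 of them called by edgeR (median log2 difference 3.01). Liver markers summed to 5.50 to 35.2 CPM in MP-coded and 4.30 to 307 CPM in P-coded libraries, and all 7 were lower in MP at an unadjusted p under 0.05 (median −3.65, none called). All 7 macrophage markers had a higher mean in MP (median 0.27, summed level 317 to 478 CPM against 264 to 352 CPM, none called). Their part in the difference of the members between codes was not tested.

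Each code was then set against the virgin libraries, which both comparisons share. P-coded hearts had lower means in 72 of 78 members (background 53.0%), at a median of −0.080 on the log2 scale, and 15 members stood at an unadjusted p under 0.05 as lower (background 4.46%). MP-coded hearts had lower means in 51 of 78 members (background 51.0%) with a median of −0.020, and 3 members stood there (background 4.27%). No member passed in either comparison, where edgeR called 0.521% and 0.0% of genes, 0.22% and 0.0% as lower. For Mrpl3 the log2 fold change was −0.23 in P-coded and −0.18 in MP-coded hearts (edgeR adjusted p of 0.117 and 0.403). In P-coded against virgin hearts all 11 tested kidney tubule markers were lower, 7 of them called (median −5.85), and 5 of 7 liver markers were called (median of all 7, 4.06). In MP-coded against virgin hearts all 11 tested kidney markers were lower, none of them called (median −2.52). The part of these tissues in the members' values was not tested.

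Other genes of mitochondrial translation were read from the same fit, and none of them passed. Of 5 ribosomal proteins under other symbols, 5 were lower (median −0.063), with Ptcd3, an RNA-binding small subunit protein, at 109.5 against 116.8 CPM and Aurkaip1, a further small subunit protein, at 27.9 against 29.8 CPM. Of 25 assembly factors, 19 were lower (median −0.045). Mrm3, a methyltransferase of the large ribosomal RNA, was at 12.0 ± 0.9 CPM in multiparous hearts, below the 14.2 ± 1.5 CPM of the virgin group (log2 fold change −0.24, SE 0.064, edgeR adjusted p = 0.200), and Trub2, a pseudouridine synthase, 17.4 against 18.5 CPM. Of 16 translation factors, 15 were lower (median −0.076), among them Mtfmt, which formylates the initiator methionine (5.36 against 5.91 CPM), and the initiation factor Mtif2 (42.9 against 46.5 CPM).

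Of 20 genes for charging mitochondrial transfer RNAs, 18 were lower (median −0.049), with Qrsl1, a subunit of the glutamine amidotransferase, at 23.9 against 26.8 CPM and Tars2, the threonine enzyme, at 34.7 against 37.1 CPM. Of 10 genes of mitochondrial transcription and replication, 8 were lower (median −0.042), with the elongation factor Tefm at 12.9 against 14.01 CPM and the RNA polymerase Polrmt at 31.1 against 33.7 CPM. Of 37 genes listed for complex I by symbol, 35 were lower (median −0.067). The 10 nuclear regulators of mitochondrial biogenesis lay on the other side, with 3 lower and a median of 0.023. Yy1 measured 52.3 ± 2.1 against 49.4 ± 1.9 CPM (log2 fold change 0.08, edgeR adjusted p = 0.498) and Gabpb1, the partner chain of GABP, 12.6 against 13.7 CPM. Among the 81 tested ribosomal proteins of the cytosol, 22 were lower and the median was 0.021. Their direction depended on the code. Against virgin hearts, 6 of 81 were lower in MP-coded hearts (median 0.060, background 51.0%). In P-coded hearts 57 of 81 were lower (median −0.019, background 53.0%), the direction of most members. Differences between these lists were not tested.

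**Figure D5:**
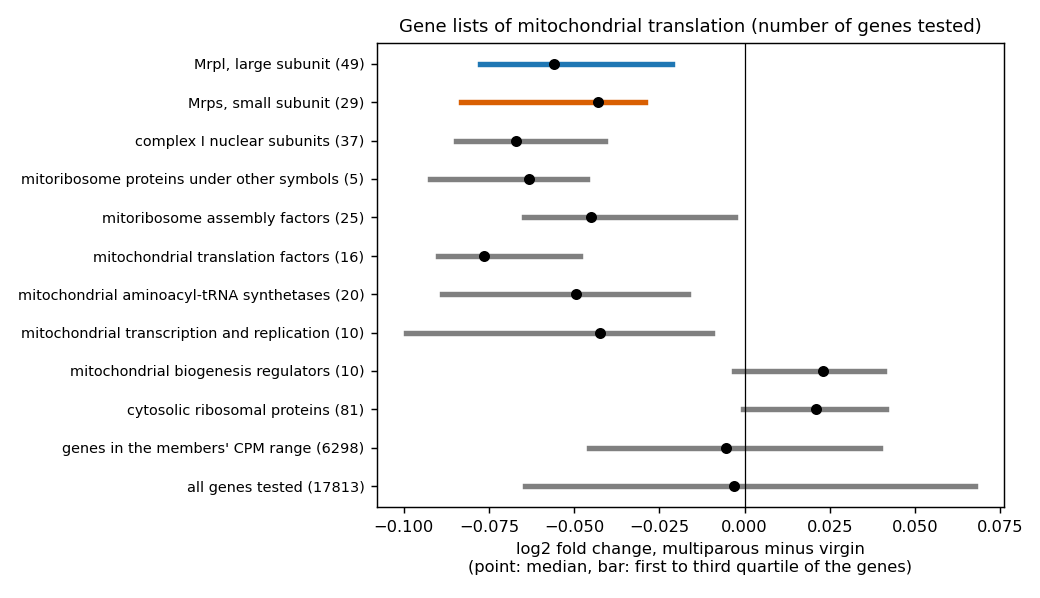
The median log2 fold change (x axis, multiparous minus virgin) of each gene list as a point, with a bar from the first to the third quartile of its genes and the number of genes tested in parentheses. The lists of mitochondrial translation and complex I have medians between −0.076 and −0.042, and biogenesis regulators and cytosolic ribosomal proteins have medians of 0.023 and 0.021. P-coded and MP-coded libraries are pooled.

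Many members start close to another gene read in the opposite direction. Such a head-to-head partner, with starts at most 1000 bases apart or overlapping by at most 500, was found for 26 of 78 members (33.3%), against 13.4% of 13523 tested protein-coding genes. These 26 members form 25 pairs, and in 22 pairs both genes were tested. The member was lower in 18 of the 22 pairs and the partner in 10, and both had the same direction in 8, with Mrps11 counted as the member and Mrpl46 as the partner in the pair that holds 2 members. Mrps11 and Mrpl46 are paired with each other on chromosome 7, their starts overlapping by 412 bases. Mrps11 had a log2 fold change of 0.01 and Mrpl46 of −0.09. Mrps12 starts 172 bases from Sars2, the serine enzyme for mitochondrial transfer RNA, which measured 8.84 against 9.40 CPM. Mrps27 starts 81 bases from Ptcd2 (51.3 against 55.0 CPM), a further RNA-binding protein of mitochondria. Mrps18b starts 45 bases from Ppp1r10, a phosphatase regulator that measured 51.6 against 47.8 CPM, a difference opposite in sign to its own that did not pass (edgeR adjusted p = 0.829). Partners are named here for their position, outside the rule for named genes.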

How the data were processed

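Each library's raw, unnormalized gene counts were deposited as a table. The submitters' processing notes name STAR 2.7.11b, HTSeq 0.11.1, SAMtools 1.19.2, Trim Galore 0.6.10 and cutadapt 4.8, with build GRCm38.p6, and per the labels' protocols a stranded total RNA kit with removal of ribosomal RNA was used. For the annotation release and the strand setting the sources used here give no entry. Reads with no gene, 26.5% to 33.1% per library, stayed out of library sizes.

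The test on counts was that of edgeR 4.0.16 under R 4.3.3 (TMM factors, filterByExpr, quasi-likelihood F-test on group, Benjamini-Hochberg over 17813 genes, threshold 0.05). CPM are TMM-scaled and fold changes are multiparous minus virgin. Identifiers of 54435 of 55487 genes (98.1%), all members included, matched GENCODE M21, which gave coordinates and lengths. Start windows, and the positions counted from a start, are from RefSeq. Windows were not used here for Mrpl13, Mrpl15, Mrpl19, Mrpl38, Mrpl4, Mrpl54, Mrps28, Mrps34 and Mrps35. The fit was tested on simulated data.

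Members, lists and tests were chosen with earlier results of these data known. Members named with values are the 10 with the smallest p, the 3 highest and lowest per kilobase, the most and least variable, the 3 with the smallest p between codes, and 8 chosen for their role, with 2 genes from each other list. Alternatives were DESeq2 1.42.0, limma 3.58.1 voom, other factors and filters, a replicate block, a kidney covariate, each code alone and leaving out each library. The labels give counts of mice but do not tie each library to 1 animal, so p-values measure the spread between libraries.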

Additional observations from a re-analysis of the deposited data

Results flagged for a closer look

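Of 56 groups of 8 libraries examined among the named genes, 2 held a library standing far from the rest, where chance gives about 1 in 20. Mrpl3 measured 74.3 CPM in multiparous 3, against 68.6 CPM in the next and 63.8 CPM in the lowest multiparous library. Mrps30 measured 35.8 CPM in multiparous 3, against 32.4 CPM in the next and 29.8 CPM in the lowest. In that library 72 of 78 members lay above their own mean. Without it, 71 of 78 members had a lower mean in multiparous hearts and the edgeR adjusted p of Mrpl3 was 0.0501.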

How the results depend on the processing

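The number of members with a lower mean in multiparous hearts ranged from 60 to 71 when each library was left out, and the median log2 fold change from −0.072 to −0.038. By symbol, the large subunit median ranged from −0.076 to −0.040 and the small subunit median from −0.065 to −0.027. Without scaling factors 55 members were lower and their median was −0.019, while that of all genes moved to 0.030. The kidney covariate gave 50 members and −0.020. Members called lower numbered 1 with DESeq2, 1 at an adjusted p under 0.1 and 0 to 1 with libraries left out, in each case Mrpl3. Genes called in all, 2 in the fit reported, numbered 0 without scaling factors, with the kidney covariate and for MP-coded hearts alone, 128 with DESeq2, 56 with no filter, 97 for P-coded hearts alone, 39 at an adjusted p under 0.1, and 0 to 55 with libraries left out. Between codes, 22 genes became 295 with DESeq2, 389 with no filter and 3 to 197 with libraries left out. A replicate block called 33 genes and no member (66 lower, lowest edgeR adjusted p = 0.0644). Same-numbered libraries correlated between −0.134 and 0.171, which shows no pairing by number but cannot exclude one. Of 36 named genes, 27 kept their direction in every fit run. Mrps36 turned without factors (0.013), with the kidney covariate (0.016) and for MP-coded hearts alone (0.032). The kidney covariate turned Mrpl53 (0.097), Mrps10 (−0.025), Mrps34 (0.00815) and Mrps18c (0.064). MP-coded hearts alone turned Mrps21 (0.00472) and Mrps34 (0.021), and P-coded hearts alone turned Mrpl24 (−0.049) and Mrps12 (−0.045). With libraries left out, Mrps36 ranged from −0.056 to 0.0073, Mrpl24 from −0.0080 to 0.028, Mrps12 from −0.0078 to 0.066, Mrpl34 from −0.075 to 0.00034 and Mrps10 from −0.0067 to 0.027. The cause of these changes was not tested. Counts were fewest for Mrpl53, at 21 in its lowest library, and the effect of depth on the members was not tested.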
